A study of Mus musculus with 8 samples.

Results

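Transcripts of 10 genes of transforming growth factor beta (TGF-beta) signalling were followed in mouse pancreatic ductal adenocarcinoma (PDAC) cells that overexpressed WT-USP21 or ED-USP21. The genes were chosen by name, as the rows of the count files whose gene column equals Tgfb1, Tgfb2, Tgfb3, Tgfbr1, Tgfbr2, Smad7, Skil, Pmepa1, Tgfbi or Ltbp2. All 10 were found, each as 1 row among 39179 genes, and 9 of the 10 passed the filter on low counts that left 16192 genes for testing. Tgfbi did not pass it. USP21 removes ubiquitin from other proteins, and ED is not spelled out in the labels.

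The data set held 8 RNA sequencing libraries, 1 with WT-USP21 and 1 with ED-USP21 from each of 4 cell lines. Every line came from the iKPC mouse model, and both constructs were put into cells with the same alleles, ROSA_rtTA, p48-Cre and a tetO transgene. In that model p48 promoter-driven Cre acts in the pancreas and the tetracycline-controlled transgene needs doxycycline, and the sources used here do not say whether it was given. The strain background is labelled FVB/C57Bl6 for lines 1 and 2 and C57BL/6 for lines 3 and 4. Parental cells with no construct were not analysed here, and cultured lines lack the stroma of a pancreatic tumour, so ligand from other cells is not part of these values.

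TGF-beta ligands are secreted in a latent form, held by a propeptide and by latent TGF-beta binding proteins in the matrix, and are released by integrins, thrombospondin or proteases. Free ligand brings the type II receptor TGFBR2 together with the type I receptor TGFBR1, which phosphorylates SMAD2 and SMAD3. These bind SMAD4, enter the nucleus and switch on target genes, some of which, such as Smad7, Skil and Pmepa1, feed back to restrain the pathway. In pancreatic cancer the pathway is known both for growth arrest in early disease and for invasion and matrix production later, and SMAD4 and TGFBR2 are recurrently lost in human tumours.

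The promoter windows of some members are shown because SMAD3 and SMAD4 are known to bind the short motif CAGAC upstream of their target genes. RefSeq windows (build GRCm38.p6) were found for 6 of the 10 members, namely Tgfb1, Tgfb2, Tgfbr1, Tgfbr2, Tgfbi and Ltbp2. The 250 bases before the start are printed for 4 of them, 5′ to 3′ on the gene's strand, with each CAGAC, or GTCTG for the other strand, in capitals.
Tgfb1, chr7:25686752-25687001, plus strand: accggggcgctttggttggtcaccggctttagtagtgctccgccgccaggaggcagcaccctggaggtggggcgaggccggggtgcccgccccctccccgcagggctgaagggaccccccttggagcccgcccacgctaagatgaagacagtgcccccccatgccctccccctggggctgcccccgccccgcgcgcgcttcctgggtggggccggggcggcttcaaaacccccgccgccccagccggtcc
Tgfb2, chr1:186705990-186706239, minus strand: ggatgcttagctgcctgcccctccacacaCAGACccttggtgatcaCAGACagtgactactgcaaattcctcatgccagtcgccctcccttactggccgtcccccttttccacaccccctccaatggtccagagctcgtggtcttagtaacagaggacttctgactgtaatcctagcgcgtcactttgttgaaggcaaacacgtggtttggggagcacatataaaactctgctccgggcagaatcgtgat
Tgfbi, chr13:56609336-56609585, plus strand: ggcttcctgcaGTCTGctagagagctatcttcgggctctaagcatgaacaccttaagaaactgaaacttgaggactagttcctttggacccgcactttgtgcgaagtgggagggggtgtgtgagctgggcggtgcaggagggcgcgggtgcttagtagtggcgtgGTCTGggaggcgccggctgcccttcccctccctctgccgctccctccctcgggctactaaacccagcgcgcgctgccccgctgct
Ltbp2, chr12:84876492-84876741, minus strand: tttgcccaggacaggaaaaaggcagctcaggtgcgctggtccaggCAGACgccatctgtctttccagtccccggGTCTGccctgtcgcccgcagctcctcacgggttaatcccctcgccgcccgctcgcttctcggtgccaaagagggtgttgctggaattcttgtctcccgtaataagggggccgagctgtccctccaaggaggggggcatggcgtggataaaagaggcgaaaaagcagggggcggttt
The Tgfb1 window held 0 matches and was 75.2% G or C, and the windows of Tgfb2, Tgfbi and Ltbp2 held 2 each, at 53.6%, 62.4% and 61.6% G or C. Among the windows not printed, those of Tgfbr1 held 0 and 1 and that of Tgfbr2 held 1. Of 32851 windows of 250 bases in the table, 42.2% held at least 1 match on either strand and 2.32% at least 3. A match is a description of letters and not a binding site. None of the 4 printed windows held the AP-1 motif TGANTCA, which 6.75% of all windows held.

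Gene counts per library ran from 72828184 to 107551210. Usp21 itself was lower in WT-USP21 than in ED-USP21 libraries, at 147, 944, 539 and 941 CPM (gene reads scaled to library size by the TMM method) in lines 1 to 4 with WT-USP21, against 1658, 3133, 1662 and 2721 CPM with ED-USP21. The groups did not overlap, and the exact 2-sided permutation test over 70 arrangements gave p = 0.0286, the smallest it can give. That test ignores the pairing by line, and the exact sign-flip test within lines, over 16 patterns, gave p = 0.125, which is also its smallest and does not pass. The constructs thus differed in Usp21 amount and not in its form alone, and this holds for each comparison that follows. Line 1 stood apart from the others, with 3833 genes at least 2-fold apart from line 2 under WT-USP21, whereas lines 2 and 4 were 717 genes apart with WT-USP21 and 703 with ED-USP21, fewer than the 1333 and 1718 between the constructs within these lines. Lines 2 and 4 are therefore not shown to be independent, which limits each n of 4 and each fit that leaves line 1 out. The cells carried keratin transcripts of ductal cells, with Krt19 at 961 to 2588 CPM in WT-USP21 and 1455 to 1939 CPM in ED-USP21 libraries, and of the epithelial adhesion genes Cdh1 was at 289 to 545 CPM with WT-USP21 and 330 to 477 CPM with ED-USP21. Epcam, the lowest of the 7 ductal markers, was at 0.139 to 5.35 CPM with WT-USP21 and 0.0645 to 3.40 CPM with ED-USP21. Of 8 fibroblast markers Lum, Dcn and Pdpn had 0 reads in all libraries, and the list summed to 6.90 to 15.1 CPM with WT-USP21 and 4.82 to 7.84 CPM with ED-USP21. The 6 endothelial markers, led by Kdr and with Emcn at 0, summed to 2.42 to 7.48 CPM with WT-USP21 and 0.665 to 0.946 CPM with ED-USP21, and the 7 immune markers, mostly Cd68 and with Emr1 at 0, to 6.12 to 13.1 CPM with WT-USP21 and 5.16 to 16.2 CPM with ED-USP21. The part of these markers in the results below was not tested.

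Setting WT-USP21 against ED-USP21 within each line addresses which transcripts of the pathway go with the construct. Among the ligands and feedback genes, Tgfb3, Smad7, Skil and Pmepa1 had a higher CPM with WT-USP21 in 4 of 4 lines, and the receptor gene Tgfbr2 had a lower one in 4 of 4 lines. Of all genes tested, 9.02% were higher and 7.79% were lower in 4 of 4 lines. In the edgeR quasi-likelihood test with the line as a block, 0 of the 9 tested members passed an adjusted p of 0.05 over all genes, where 0.0247% of all genes passed. At an unadjusted p under 0.05, 4 members were higher and 1 was lower, where 5.4% of all genes were higher, 2.88% lower and 8.28% either way. DESeq2 with the block called 3 members higher, Pmepa1, Tgfb3 and Skil, where it called 1.95% of all genes higher, 0.562% lower and 2.51% in all, and limma-trend called 0 members and 0.0247% of all genes. Without the block edgeR, DESeq2 and limma-trend called 0 members, and over all genes edgeR called 0% and DESeq2 0.371%. There 1 member, Smad7, had an unadjusted edgeR p under 0.05, as had 2.42% of all genes. The median log2 difference of the 9 tested members was 0.24, against -0.00 over all genes tested. Within lines 1 to 4 the member medians were -0.01, 0.18, 0.26 and 0.40. Both libraries of a number are from the same line, and whether the 2 were grown as separate cultures more than once is not stated, so the p-values measure the spread between these libraries. In bulk RNA, fewer cells of a kind and less RNA per cell cannot be told apart.

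**Figure D1:**
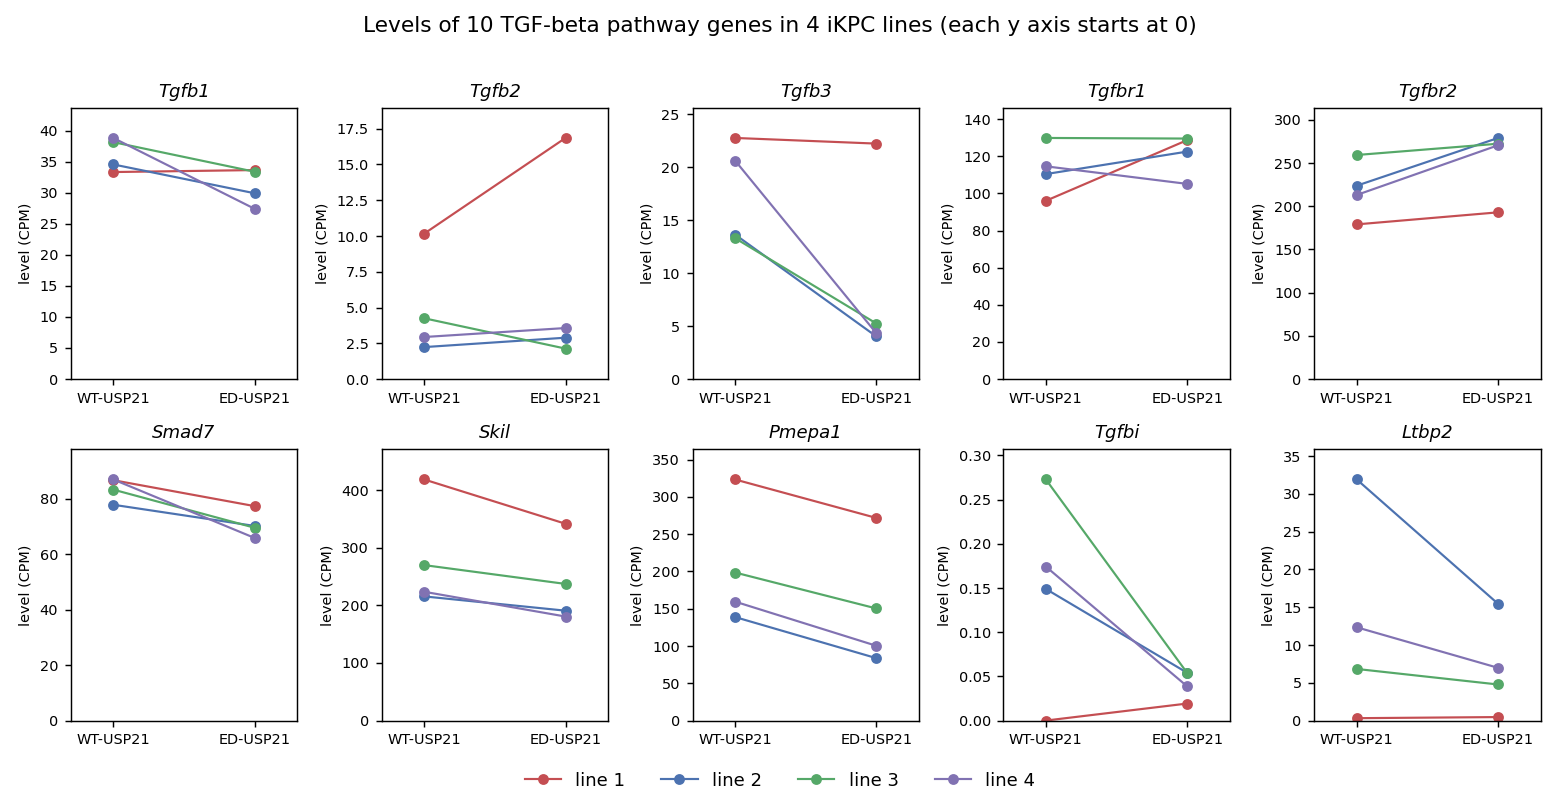
Level of each of the 10 genes in CPM (y axis, from 0), with WT-USP21 on the left and ED-USP21 on the right of each panel; each coloured line joins the 2 libraries of 1 cell line. Pmepa1, Skil and Smad7 slope down towards ED-USP21 in 4 of 4 lines, Tgfb3 does so steeply in lines 2 to 4 but is level in line 1, and Tgfbr2 slopes up in 4 of 4 lines.

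Tgfb3 (ENSMUSG00000021253), the ligand gene best known from palate and lung development, had the largest difference of the tested members. Its level was 22.8, 13.7, 13.3 and 20.7 CPM with WT-USP21 in lines 1 to 4, against 22.2, 4.02, 5.25 and 4.33 CPM with ED-USP21. The 3 ED-USP21 libraries of lines 2 to 4 were the lowest, and both libraries of line 1 were high, so the groups overlapped. WT-USP21 libraries held 1.02-fold the ED-USP21 level in line 1, but 3.39-fold, 2.54-fold and 4.77-fold in lines 2, 3 and 4. Across lines the log2 difference was 1.35 (SE 0.36), which did not pass in edgeR (adjusted p = 0.370) and passed in DESeq2 (log2 1.36, adjusted p = 0.00310). Without line 1 it was 1.79 (SE 0.17, edgeR adjusted p = 0.00890).

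Tgfb1 (ENSMUSG00000002603), the most widely expressed ligand gene, stood at 33.3, 34.5, 38.1 and 38.8 CPM with WT-USP21 in lines 1 to 4, against 33.6, 29.9, 33.4 and 27.4 CPM with ED-USP21. The groups overlapped, as the WT-USP21 library of line 1 lay just below the ED-USP21 libraries of lines 1 and 3. The pair of line 1 was level, and in the other 3 lines the WT-USP21 library was higher. Its log2 difference of 0.22 (SE 0.09) did not pass in edgeR (adjusted p = 0.613).

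Tgfb2 (ENSMUSG00000039239), a ligand gene with roles in heart and epithelial-mesenchymal development, was low and differed more by line than by construct. Its level was 10.2, 2.23, 4.25 and 2.94 CPM with WT-USP21, against 16.9, 2.89, 2.13 and 3.57 CPM with ED-USP21. WT-USP21 was the higher of the pair in line 3 alone, and line 1 held the highest value in each group. The log2 difference was -0.11 (SE 0.29, edgeR adjusted p = 0.958), and it turned to 0.12 without line 1.

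Per kilobase of exon, Tgfb1 and Tgfb3 made up most of the ligand transcripts. The summed ligand level was 15.1, 11.3, 12.2 and 14.3 CPM per kb with WT-USP21 in lines 1 to 4, against 16.2, 7.62, 8.54 and 7.33 CPM per kb with ED-USP21. Lines 2 to 4 thus held more ligand transcript with WT-USP21 and line 1 slightly less. Tgfb3 made up 44.6%, 35.8%, 32.2% and 42.7% of the ligand level with WT-USP21, against 40.7%, 15.6%, 18.2% and 17.4% with ED-USP21. In lines 2 to 4 the share of Tgfb1 was 60.8%, 61.8% and 53.8% with WT-USP21, against 77.8%, 77.5% and 74.1% with ED-USP21. These shares are of RNA and say nothing of secreted or active ligand.

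**Figure D2:**
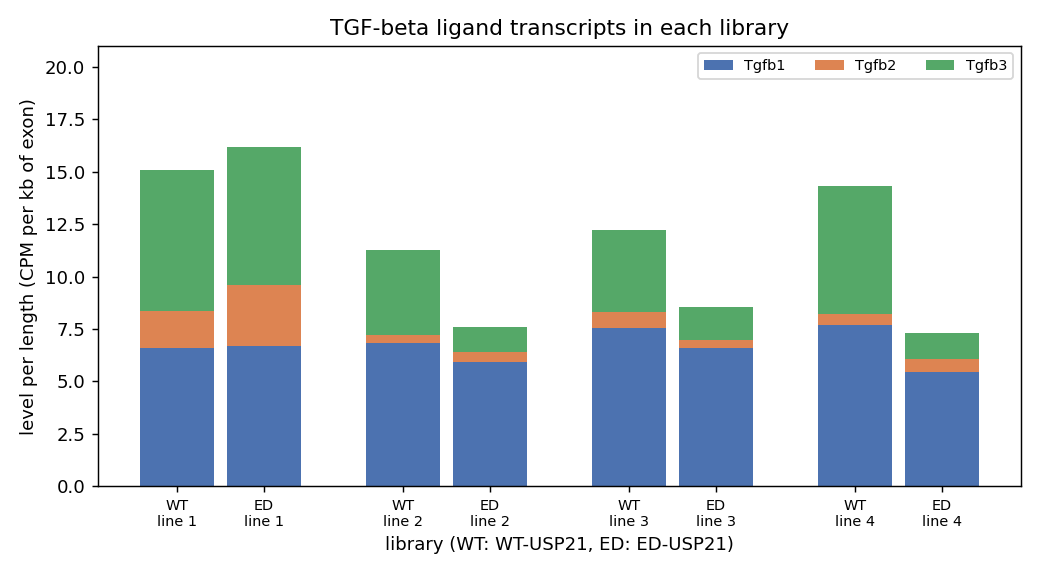
Stacked bars of the level per length (CPM per kb of exon, y axis from 0) of Tgfb1, Tgfb2 and Tgfb3 in each library, with the WT-USP21 library left of the ED-USP21 library of each line. In lines 2 to 4 the Tgfb3 part is 3.94 to 6.10 CPM per kb with WT-USP21 and 1.19 to 1.55 CPM per kb with ED-USP21, while in line 1 it is 6.73 and 6.58 CPM per kb.

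Tgfbr2 (ENSMUSG00000032440), the type II receptor that binds ligand first, was at 179, 224, 259 and 213 CPM with WT-USP21 in lines 1 to 4, against 193, 279, 272 and 271 CPM with ED-USP21. Within each line the WT-USP21 library was the lower, but line 1 was below the rest with both constructs and the groups overlapped. The log2 difference of -0.21 (SE 0.07) did not pass in edgeR (adjusted p = 0.491) or in DESeq2 (adjusted p = 0.248). Tgfbr1 (ENSMUSG00000007613), the type I receptor kinase, was at 96.0, 110.4, 129.9 and 114.6 CPM with WT-USP21, against 128.7, 122.5, 129.6 and 105.1 CPM with ED-USP21. It was lower with WT-USP21 in lines 1 and 2 and level or higher in lines 3 and 4, and its edgeR estimate was -0.11 (SE 0.10, adjusted p = 0.844). As WT-USP21 over ED-USP21 folds within lines, the receptor genes ran from 0.746 to 1.09 for Tgfbr1 and from 0.787 to 0.952 for Tgfbr2.

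Pmepa1 (ENSMUSG00000038400), a SMAD-induced membrane protein that sequesters receptor-activated SMADs, had the smallest p of the members. It stood at 323.4, 138.9, 198.6 and 159.6 CPM with WT-USP21 in lines 1 to 4, against 271.8, 83.7, 150.4 and 100.3 CPM with ED-USP21. Line 1 was the highest with either construct, so the groups overlapped, yet the WT-USP21 library was higher in each line, by 1.19-fold, 1.66-fold, 1.32-fold and 1.59-fold. The log2 difference was 0.51 (SE 0.09), with an edgeR adjusted p of 0.254 and a DESeq2 adjusted p of 0.000574. Without line 1 it was 0.61 (SE 0.08) and passed in edgeR (adjusted p = 0.0148).

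Skil (ENSMUSG00000027660) encodes SnoN, a corepressor that binds SMADs and is itself a rapid target. It was at 418.6, 215.6, 269.9 and 223.6 CPM with WT-USP21, against 341.7, 190.8, 237.3 and 180.6 CPM with ED-USP21. The differences of the 4 lines were close to each other, at 0.29, 0.18, 0.19 and 0.31 on the log2 scale, although line 1 lay well above the others with both constructs. The log2 difference of 0.24 (SE 0.06) gave an edgeR adjusted p of 0.304 and a DESeq2 adjusted p of 0.00789.

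Smad7 (ENSMUSG00000025880), the inhibitory SMAD that targets the type I receptor for degradation, was the only member whose groups did not overlap. Its level was 86.7, 77.8, 83.3 and 87.0 CPM with WT-USP21 in lines 1 to 4, against 77.4, 70.2, 69.5 and 65.9 CPM with ED-USP21. The lowest WT-USP21 library, of line 2, lay just above the highest ED-USP21 library, of line 1. Of all genes tested, 1.07% were higher and 0.71% lower with WT-USP21 without overlap. The log2 difference of 0.24 (SE 0.06) did not pass in edgeR (adjusted p = 0.370) or in DESeq2 (adjusted p = 0.0727).

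Ltbp2 (ENSMUSG00000002020), which encodes an elastic fibre protein of the family named latent TGF-beta binding proteins, was nearly absent from line 1 and well expressed elsewhere. It had 0.315, 31.9, 6.83 and 12.3 CPM with WT-USP21 in lines 1 to 4, against 0.462, 15.5, 4.77 and 6.98 CPM with ED-USP21. Lines 2, 3 and 4 each held more with WT-USP21, at log2 differences of 1.05, 0.51 and 0.82, and line 1 held 29 reads against 48. That ratio in line 1, scaled to library totals, was 0.682 (95% exact interval 0.415 to 1.10, counting error only). Over all lines the log2 difference was 0.57 (SE 0.24, edgeR adjusted p = 0.613). Without line 1 it was 0.81 (SE 0.11, adjusted p = 0.0182).

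Tgfbi (ENSMUSG00000035493), a matrix protein named for its induction by TGF-beta, was close to silent. Its reads were 0, 15, 26 and 15 with WT-USP21 in lines 1 to 4, against 2, 4, 5 and 3 with ED-USP21. Summed, 56 reads stood against 14, a ratio of 3.73 (95% exact interval 2.05 to 7.25, counting error only). The excess lay in lines 2 to 4, and with a line left out the ratio ran from 3.05 without line 3 to 4.12 without line 2. At 0 to 0.273 CPM with WT-USP21 and 0.0193 to 0.0540 CPM with ED-USP21, the gene was too low for the test with all 4 lines. Without line 1 it passed the filter, and its log2 difference was 1.98 (SE 0.55, edgeR adjusted p = 0.112).

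**Figure D3:**
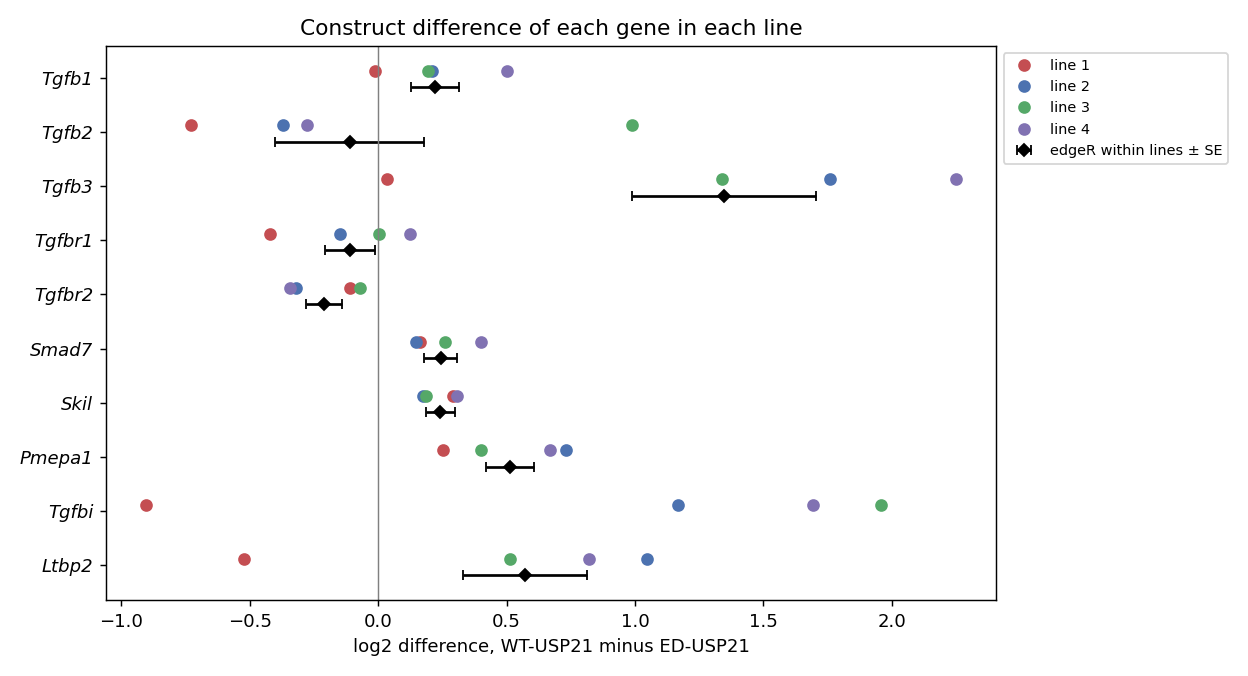
Log2 difference, WT-USP21 minus ED-USP21, of each gene in each line (coloured points, 1 pair of libraries each) and the edgeR estimate within lines with its SE (black diamonds; Tgfbi was not tested). Skil and Smad7 points lie close together above 0, whereas Tgfb3 runs from 0.03 in line 1 to 2.25 in line 4.

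Line 1 gave a different construct difference for Tgfb3. A term for line 1 against lines 2 to 4, chosen because the departure of line 1 was already known, was -1.75 for Tgfb3 (SE 0.33, edgeR adjusted p = 0.0339), that is, 0.03 in line 1 and 1.34 to 2.25 in the others. It was the only member of the 9 tested that passed, and 6.27% of all genes passed this test. Line 1 is a single pair that the test assumes to vary like the other pairs. The next members were Ltbp2 (-1.35, SE 0.36, adjusted p = 0.0857) and Tgfbr1 (-0.42, SE 0.14, adjusted p = 0.146). With line 1 left out of the comparison within lines, Tgfb3, Pmepa1 and Ltbp2 passed as higher with WT-USP21 and 0 members as lower, where 2.51% of all genes were called higher and 2.06% lower. Left out of the fit without the block, Tgfb3 alone passed, where 2.35% of all genes did. Fits without line 1, here and for other genes, rest on lines 2 to 4, of which lines 2 and 4 are not shown to be independent. With line 2, line 3 or line 4 left out instead, 0 members passed in the comparison within lines. The construct difference was not shown to depend on the background label, with 0 of 9 members called by edgeR, 0 at an unadjusted p under 0.05, 0 called by DESeq2, and 0% of all genes called by edgeR.

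The levels themselves also set line 1 apart, as a description without a test. Pmepa1 in line 1 was 1.95-fold the mean of lines 2 to 4 with WT-USP21 and 2.44-fold with ED-USP21, and Skil was 1.77-fold and 1.68-fold. Tgfb2 in line 1 was 3.24-fold that mean with WT-USP21 and 5.89-fold with ED-USP21. Ltbp2 went the other way, the mean of lines 2 to 4 being 54.0-fold the level of line 1 with WT-USP21 and 19.6-fold with ED-USP21. Tgfb1 and Smad7 were within 1.13-fold of the mean of the other lines with either construct.

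Per length, the feedback gene Pmepa1 was the most abundant member, with a mean of 36.3 CPM per kb over the 8 libraries (17.0 to 65.8). Tgfbr2 at 28.9 (21.9 to 34.1) and Skil at 26.8 CPM per kb (18.6 to 43.2) came next, and these 3 ranges overlapped. Tgfbr1 at 17.9 (14.7 to 19.9) and Smad7 at 17.1 CPM per kb (14.6 to 19.2) did not differ beyond their spread. All 5 lay above Tgfb1 at 6.67 CPM per kb (5.43 to 7.70), whose range overlapped that of Tgfb3 at 3.93 CPM per kb (1.19 to 6.73). Ltbp2 at 1.21 (0.0385 to 3.90) and Tgfb2 at 0.972 CPM per kb (0.368 to 2.91) overlapped widely, and Tgfbi was last at 0.0252 CPM per kb. Exon lengths came from an annotation of a later build, and the union of all exons understates a gene with long rare exons.

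Over the 8 libraries, the 5 genes whose log2 CPM followed that of Pmepa1 most closely were Esr1, C030046E11Rik, Dpy19l3, Selk and Pkp1. Their Pearson correlations, among 16192 genes and with line 1 the highest for each, were 0.992, 0.991, 0.989, 0.986 and 0.983. In 4 of 4 lines each of the 5 had its higher value with WT-USP21, as had 9.02% of all genes tested. Pmepa1 had this direction too, and the 5 were picked for following it over the same libraries, so the choice favours it. Pkp1, the desmosome gene plakophilin 1, was at 26.8, 3.77, 5.78 and 5.62 CPM with WT-USP21 in lines 1 to 4, against 16.1, 1.31, 3.22 and 1.84 CPM with ED-USP21. The 8 libraries come from 4 lines and are not independent points.

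Upstream of the target genes, the SMAD transducers hardly moved. Of 3 tested, edgeR and DESeq2 with the block called 0, and 1 (Smad3) had an unadjusted edgeR p under 0.05, as had 8.28% of all genes. Smad2 averaged 74.8 ± 2.62 CPM with WT-USP21 and 74.5 ± 3.68 CPM with ED-USP21 (SD, n = 4 each), and its log2 difference was 0.01 (SE 0.05). Smad4, the common partner whose loss is frequent in human PDAC, averaged 119.8 ± 8.09 CPM with WT-USP21 and 119.8 ± 13.0 CPM with ED-USP21 (log2 0.00, SE 0.07). Smad3 averaged 328 ± 24.9 CPM with WT-USP21 and 298 ± 32.6 CPM with ED-USP21 (log2 0.14, SE 0.06, edgeR adjusted p = 0.601).

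Genes that hold or activate the latent ligand went in both directions. Of 12 tested of 16 listed, edgeR with the block called 0. At an unadjusted p under 0.05 there were 4 higher and 2 lower, where 5.4% of all genes were higher and 2.88% lower. The calls of DESeq2 were Itgb6 as higher and Itgb3 as lower, where it called 1.95% of all genes higher and 0.562% lower. Itgb6, the subunit of the epithelial integrin that releases active TGF-beta from the latent complex, averaged 48.3 ± 18.8 CPM with WT-USP21 and 25.0 ± 3.83 CPM with ED-USP21. Its log2 differences were 0.08, 1.12, 1.19 and 1.05 in lines 1 to 4. Without line 1 the estimate was 1.13 (SE 0.06, edgeR adjusted p = 0.00178). The edgeR adjusted p of Itgb6 was 0.286 with all lines and 0.714 to 0.999 with line 2, line 3 or line 4 left out instead. Its partner Itgav averaged 387.4 CPM in each group (log2 -0.01, SE 0.07), and for Itgb8, which also pairs with it, 30 reads were found with WT-USP21 in total, against 40 with ED-USP21. Thbs1, the secreted activator thrombospondin 1, averaged 61.0 ± 41.7 CPM with WT-USP21 and 26.7 ± 19.5 CPM with ED-USP21 (log2 1.17, SE 0.35, edgeR adjusted p = 0.433, and 0.00920 without line 1). Mmp14, a membrane protease, was higher in 4 of 4 lines (log2 0.21, SE 0.06, adjusted p = 0.405). Itgb3 (log2 -0.64 with all lines, SE 0.19, edgeR adjusted p = 0.433) passed as lower without line 1 (log2 -0.86, SE 0.11, edgeR adjusted p = 0.0155). The latent binding protein gene Ltbp1 had a negative difference in 4 of 4 lines (log2 -0.24, SE 0.07, adjusted p = 0.434).

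Of 12 negative regulators edgeR with the block called 0. At an unadjusted p under 0.05, 2 were higher and 0 lower, where 5.4% of all genes were higher and 2.88% lower. The 1 call of DESeq2 was Ldlrad4, as higher, where it called 1.95% of all genes higher. Ldlrad4, a membrane inhibitor of SMAD phosphorylation related to Pmepa1, averaged 17.2 ± 5.63 CPM with WT-USP21 and 9.17 ± 3.16 CPM with ED-USP21 (log2 0.92, SE 0.29, edgeR adjusted p = 0.451). It differed by -0.18 in line 1 and by 1.24, 1.01 and 1.57 in lines 2 to 4, and without line 1 it passed (adjusted p = 0.00840). The estimates were 0.20 (SE 0.08) for Fkbp1a, which holds the type I receptor inactive, 0.13 (SE 0.06) for the corepressor gene Ski and 0.20 (SE 0.09) for the inhibitory Smad6, with edgeR adjusted p of 0.554 to 0.657. Of 3 further receptor and co-receptor genes edgeR called 0 and DESeq2 called 1 as higher, where it called 1.95% of all genes higher. That gene, Tgfbr3, encodes betaglycan and is named here after its values were seen. It was near the floor, at 0.147 to 0.576 CPM with WT-USP21 and 0 to 0.173 CPM with ED-USP21 (edgeR adjusted p = 0.456). It had 149 reads over the WT-USP21 libraries against 23 over the ED-USP21 libraries, a ratio of 6.03 (95% exact interval 3.87 to 9.81, counting error only). That ratio was 16.7 without line 1, where 96 reads stood against 5, and 4.50 without line 4. The endothelial co-receptor gene Eng averaged 1.17 CPM with WT-USP21 and 1.05 CPM with ED-USP21.

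Among other known TGF-beta targets, 33 of 36 listed genes were tested and edgeR with the block called 0. At an unadjusted p under 0.05, 5 were higher and 0 lower, where 5.4% of all genes were higher and 2.88% lower. The median log2 difference of the 33 targets was 0.12, and the medians within lines 1 to 4 were -0.04, 0.20, 0.09 and 0.36. DESeq2 called 3 higher, Fn1, Hmga2 and Cdh2, where it called 1.95% of all genes higher. Fn1, the fibronectin gene, had log2 differences of 0.03, 0.76, 1.70 and 1.32 in lines 1 to 4, and Cdh2, the N-cadherin gene, had -0.04, 0.85, 0.64 and 1.06. Hmga2, a chromatin protein induced by SMADs, averaged 315 ± 89.8 CPM with WT-USP21 and 232 ± 127.8 CPM with ED-USP21 (log2 0.55, SE 0.15, edgeR adjusted p = 0.370). Junb, an AP-1 gene, was higher in 4 of 4 lines (log2 0.28, SE 0.08, adjusted p = 0.408). Ctgf, a matricellular target gene, had log2 differences of -0.13, 0.21, 0.48 and 0.52 in lines 1 to 4 (edgeR estimate 0.27, SE 0.12, adjusted p = 0.621). Without line 1, edgeR called 6 of these targets higher, where 4.57% of all genes were called in either direction. The fibroblast marker sums given above also reached higher with WT-USP21, though the ranges of the 2 groups overlapped. The part of these markers in the target genes was not tested, and Col1a1 is on both lists. Lum, Dcn and Pdpn were at 0 reads throughout.

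In the activin and BMP branch, 22 of 26 listed genes were tested and edgeR with the block called 0. At an unadjusted p under 0.05, 3 were higher and 2 lower, where 5.4% of all genes were higher and 2.88% lower. DESeq2 called 3 higher, Bmp4, Bmp1 and Grem1, the last named after its values were seen, where it called 1.95% of all genes higher. Bmp4, a ligand of the SMAD1/5 arm, averaged 17.5 ± 4.90 CPM with WT-USP21 and 9.38 ± 2.26 CPM with ED-USP21 (SD, n = 4 each). It was higher with WT-USP21 by 0.73, 1.04, 0.78 and 0.98 on the log2 scale in lines 1 to 4, with an edgeR adjusted p of 0.0705. For Bmp1, a protease that cleaves procollagen and latent binding proteins, the estimate was 0.53 (SE 0.15, adjusted p = 0.383). Gdf15 (log2 -0.52, SE 0.18) and the activin subunit gene Inhba (log2 -0.38, SE 0.14) had negative differences in 4 of 4 lines and did not pass (edgeR adjusted p = 0.493 and 0.556).

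**Figure D4:**
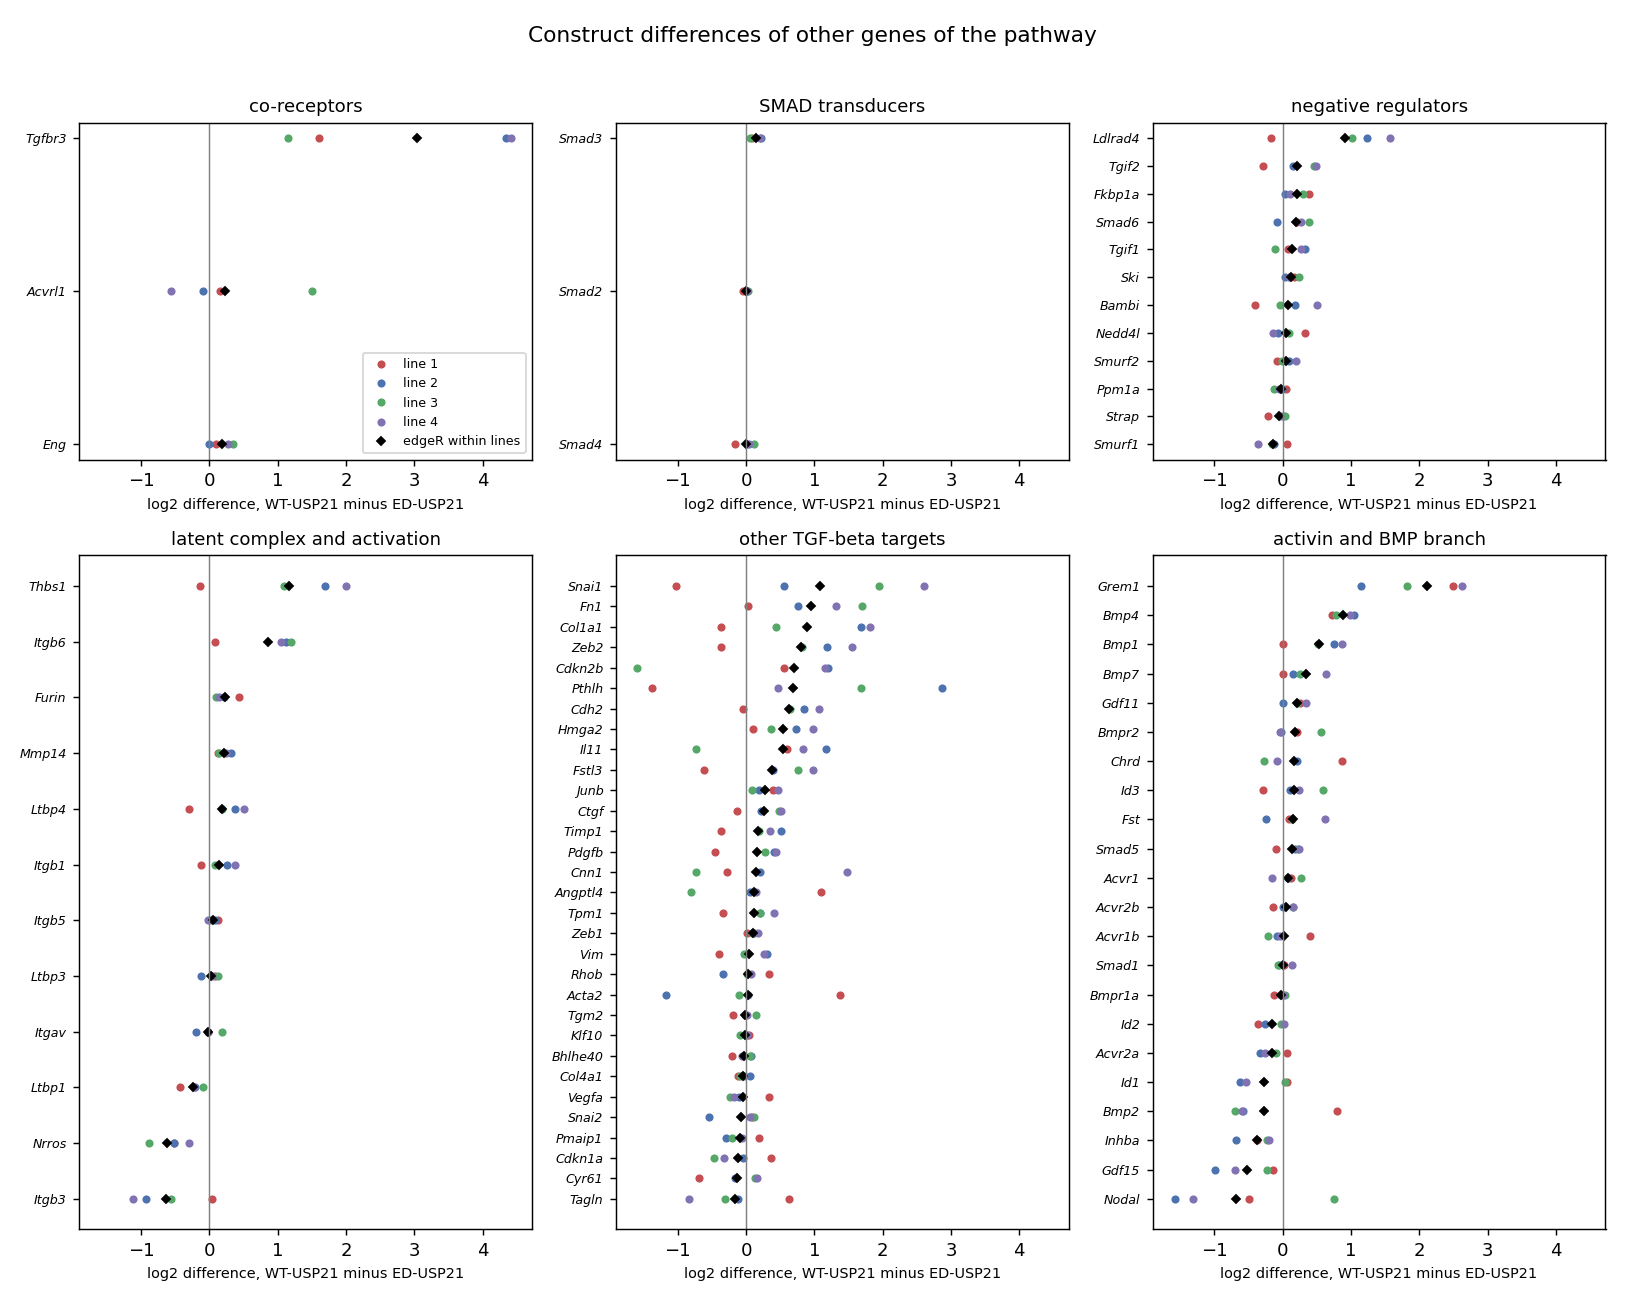
Log2 difference, WT-USP21 minus ED-USP21 (x axis), of most tested genes of 6 further lists, ordered by the edgeR estimate within lines (black diamonds), with each line as a coloured point. The points of Smad2, Smad3 and Smad4 lie within 0.23 of 0, while those of Itgb6, Thbs1 and Ldlrad4 are near or below 0 in line 1 and at 1.01 to 1.99 in lines 2 to 4.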

How the data were processed

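RNA of 8 cell line libraries was sequenced, per the labels. The authors deposited raw counts of reads for each gene. CASAVA, STAR, TopHat, Cufflinks and HTSeq with mouse build mm9 are named in the submitters' processing notes, and their versions, roles and the strand setting are not given in the sources used here. Reads of overlapping genes therefore cannot be separated. Of each file's 3 rows that name no gene, the reads in no gene took 11.4% to 20.6% and the other 2 were 0; these rows were left out.

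Log2 differences, WT-USP21 minus ED-USP21, came from edgeR 4.0.16 in R 4.3.3 (quasi-likelihood test, TMM scaling, default filter on low counts), with and without the line as a block, adjusted by Benjamini-Hochberg over all 16192 genes. An SE is the absolute log2 difference over the square root of F. Differences within a line are of log2 CPM with a prior count of 2. DESeq2 1.42.0, limma-trend (limma 3.58.1), RLE scaling, no filter, lines 2 and 4 summed and lines or libraries left out were alternatives. The scripts were tested on simulated data.

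Line numbers pair the libraries because both are the same cell line. Deviations from the group means correlated at 0.770, 0.503, 0.468 and 0.347 within lines 1 to 4, while lines 2 and 4 also correlated across lines at 0.430 and 0.364.

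The members and lists were chosen with earlier results of these data known. Named are the 10 members, Usp21, 9 pathway genes set by name, up to 4 genes per further list with the smallest p within lines and a mean of at least 1 CPM, and the 5 genes most like the member with the smallest p. Some genes and alleles that these rules or the labels give are not reported here. Promoter sequences are RefSeq's on GRCm38.p6. Exon lengths are from GENCODE M21, a later build than mm9.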

Additional observations from a re-analysis of the deposited data

Results flagged for a closer look

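Of 22 groups of 4 libraries examined (10 members and Usp21, each construct), 3 held a library set well off the remaining ones. By chance about 1 in 20 groups, here 1.1, would do so. All 3 were the ED-USP21 library of line 1, with Tgfb2 at 16.9 CPM, Tgfb3 at 22.2 CPM and Tgfbr2 at 193 CPM.

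The construct difference of Tgfb3 in line 1 minus that in lines 2 to 4 was -1.75 on the log2 scale and passed the edgeR test of that difference (adjusted p = 0.0339). Tgfbr1 moved one way in both FVB/C57Bl6 lines and the other way in both C57BL/6 lines, with a difference between the labels, FVB/C57Bl6 minus C57BL/6, of -0.35 on the log2 scale. That difference did not pass in edgeR (adjusted p = 0.990), and in line 3 the value was 0.00.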

How the results depend on the processing

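Within lines 9 members were tested, or 10 with no filter or without line 1. The number of members called within lines was 0 with no replicate block, RLE scaling, no filter, limma-trend or lines 2 and 4 summed. It was 3 with DESeq2, and 0 to 3 with a line left out, the 3 being without line 1. Without the block it was 0 throughout, the replicate block included, except 0 to 1 with a line or library left out (Tgfb3 without line 1). Over all genes, the 4 calls within lines became 0 with no replicate block, 58 with no filter, 406 with DESeq2, 0 with lines 2 and 4 summed and 0 to 746 with a line left out. Without the block the 0 calls became 4 with the replicate block, 60 with DESeq2, 3 with limma-trend and 0 to 383 with lines or libraries left out. By background label DESeq2 called 7. The Usp21 difference ran from -1.63 to -2.28 with a line left out, where 20 arrangements cannot give p below 0.1. The replicate block changed no other call.

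Signs reversed for some small or line-dependent values. Within lines, Itgav was 0.000142 with no replicate block, 0.0194 with lines 2 and 4 summed and -0.0789 to 0.0459 with a line left out. Smad2 was -0.00314 to 0.0267 with a line left out. Smad4 was -1.32e-05 with no replicate block, -0.00539 with lines 2 and 4 summed and -0.0323 to 0.0650 with a line left out. Tgfb2 was -0.46 to 0.12 with a line left out, positive without line 1. Without the block and with lines or libraries left out, Tgfb2 was -1.02 to 0.78, positive without line 1 or its ED-USP21 library, Skil was -0.00824 to 0.48, negative without the WT-USP21 library of line 1, and Ltbp2 was -0.0885 to 1.66, negative without the WT-USP21 library of line 2. By label with no filter, Tgfbr2 was 0.0138 and Skil 0.00668. The cause was not tested. Tgfbi, with 56 reads against 14, marks the limit of depth.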

Other observations

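Several pathway genes outside the naming rule, named here after their values were seen, differed between the constructs with one sign in lines 2 to 4 and the other in line 1. Zeb2, a transcription factor of epithelial-mesenchymal transition, had log2 differences of -0.36, 1.19, 0.81 and 1.55 in lines 1 to 4, and Pdgfb, a growth factor gene, had -0.46, 0.41, 0.28 and 0.43. In the other direction, Bmp2, a BMP ligand gene, had 0.79, -0.58, -0.70 and -0.60. These values are a description of genes picked for this pattern. Grem1, which encodes the BMP antagonist gremlin, was higher with WT-USP21 in each line (2.49, 1.15, 1.82 and 2.62), at a mean of 1.31 ± 0.751 CPM with WT-USP21 and 0.290 ± 0.118 CPM with ED-USP21 over 4 lines (SD). Its edgeR adjusted p within lines was 0.182, and in DESeq2 it was 3.87e-05.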
